A study of Mus musculus with 16 samples.

Results

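The genes described here are 54 mouse genes that encode voltage-gated ion channels and neurotransmitter receptors of neurons, out of 21631 protein-coding genes of the autosomes and the X chromosome. They were chosen by name and function, not by any measured value, though earlier results of these data were known. They fall into 9 classes. These are 13 voltage-gated potassium channels, 5 inward-rectifier and two-pore potassium channels, 3 sodium channels, 6 calcium channels, 10 ionotropic and 2 metabotropic glutamate receptor genes, 5 GABA receptor genes, 2 nicotinic acetylcholine receptor subunits and 8 monoamine receptors. The repressive histone mark H3K27me3 was mapped in them by ChIP-seq, the sequencing of DNA immunoprecipitated with an antibody to the mark, in B cells of the mouse spleen, purified by MACS with CD43 microbeads. The C57BL/6 mice, aged 6 to 8 weeks, were wild type (WT) or carried the Ifih1/Rigi/cGAS triple mutant genotype (mutant below), which affects cytosolic sensors of nucleic acids. Cells of both genotypes were held for 48 hours with BAFF and IL-4, each at 2 ng/mL, and with either DMSO, the solvent, or 1 uM GSK343, an inhibitor of the methyltransferase EZH2. Each genotype and treatment had 2 ChIP and 2 input replicates, which makes 16 samples in 8 groups, and was represented by 1 deposited list of broad peaks. The labels do not say what the mutations are, or whether replicates came from separate mice.

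Polycomb repressive complex 2, with EZH2 as its catalytic subunit, writes H3K27me3 on genes that a cell type keeps silent, often at CpG-rich starts. Ion channels and neurotransmitter receptors set the excitability and the synaptic responses of neurons, and most of their genes are not active in lymphocytes. A few channels do have known roles in immune cells, such as Kv1.3, the potassium channel encoded by Kcna3.

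Promoter windows from RefSeq (GRCm38.p6) show how far the starts of these genes range in sequence. Each window holds 300 bases, from 250 before to 50 after a listed start, and a window was listed for 42 of the 54 genes. Printed are the window with the most CG dinucleotides among the 42, the 3 windows that tie for the fewest, and that of Kcna3. CG dinucleotides, which read the same on both strands, are in capitals. Of all 32851 windows in the table, 94.6% hold at least 1 CG, and the median is 7 with quartiles of 3 and 20. The window of Grik3, a kainate-type glutamate receptor subunit, lies at chr4:125490446-125490745 on the plus strand. The window of Kcna3 lies at chr3:107035912-107036211 on the plus strand. That of Cacna1c, the pore subunit of an L-type calcium channel, lies at chr6:119196360-119196659 on the minus strand. Those of Kcnc2, a potassium channel of fast-spiking neurons, and Scn2a, a sodium channel, lie on the plus strand at chr10:112269767-112270066 and chr2:65620519-65620818. Where a gene had several listed starts, the first was taken.
Grik3: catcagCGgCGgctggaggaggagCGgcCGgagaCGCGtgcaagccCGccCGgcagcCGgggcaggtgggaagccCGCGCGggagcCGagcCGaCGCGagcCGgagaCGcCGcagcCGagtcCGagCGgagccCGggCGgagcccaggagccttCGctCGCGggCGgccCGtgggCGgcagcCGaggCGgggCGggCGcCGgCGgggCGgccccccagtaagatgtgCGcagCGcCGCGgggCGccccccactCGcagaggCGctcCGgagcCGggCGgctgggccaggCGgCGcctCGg
Kcna3: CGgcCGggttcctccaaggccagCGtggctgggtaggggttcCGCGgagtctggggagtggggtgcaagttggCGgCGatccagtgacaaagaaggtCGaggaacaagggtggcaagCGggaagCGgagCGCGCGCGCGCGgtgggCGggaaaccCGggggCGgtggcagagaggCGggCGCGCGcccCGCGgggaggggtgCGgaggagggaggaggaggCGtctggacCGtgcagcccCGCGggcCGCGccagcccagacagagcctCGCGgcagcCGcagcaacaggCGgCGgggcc
Cacna1c: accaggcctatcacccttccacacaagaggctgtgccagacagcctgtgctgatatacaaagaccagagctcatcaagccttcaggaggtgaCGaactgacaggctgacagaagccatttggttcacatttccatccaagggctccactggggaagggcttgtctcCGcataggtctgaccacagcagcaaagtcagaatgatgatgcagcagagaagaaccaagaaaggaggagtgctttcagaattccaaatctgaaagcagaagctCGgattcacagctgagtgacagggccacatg
Kcnc2: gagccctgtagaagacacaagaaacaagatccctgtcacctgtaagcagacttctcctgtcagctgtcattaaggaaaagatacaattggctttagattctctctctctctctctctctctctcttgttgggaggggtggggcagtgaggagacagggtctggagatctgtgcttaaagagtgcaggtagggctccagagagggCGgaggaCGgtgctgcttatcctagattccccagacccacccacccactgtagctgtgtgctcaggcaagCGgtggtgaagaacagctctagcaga
Scn2a: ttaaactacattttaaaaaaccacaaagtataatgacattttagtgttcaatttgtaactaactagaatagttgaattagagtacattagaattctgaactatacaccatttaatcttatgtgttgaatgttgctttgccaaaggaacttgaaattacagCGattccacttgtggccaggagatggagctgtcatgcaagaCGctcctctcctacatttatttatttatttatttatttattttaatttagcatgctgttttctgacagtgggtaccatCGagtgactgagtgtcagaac

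Grik3 held 50 CG and a GC content of 82%, and all 300 bases of its window lay under a peak in each of the 4 lists. The Kcna3 window held 37 CG, more than 94.4% of all windows, and no base of it lay under a peak in any list. The windows of Cacna1c, Kcnc2 and Scn2a held 3 CG each and differed in coverage. Those of Cacna1c and Scn2a were free of peaks in each list, whereas 300, 0, 300 and 260 bases of the Kcnc2 window were covered, the first pair being WT under DMSO and GSK343 and the second pair mutant. Cacna1c has 3 listed starts, and a peak lay within 1 kb of a later one in each list. Scn2a has 2, and a peak lay within 1 kb of the second in mutant DMSO only. Among the 42 windows, 28 in WT lay wholly under a peak with DMSO and 16 with GSK343, and in mutant these were 28 and 15. The same count was not made over all listed windows, so these numbers have no background. Sequence composition was not compared over the gene set because windows were listed for 77.8% of it. The genes without one are Kcna1, Kcnq3, Kcnk3, Cacna1a, Cacna1g, Cacna1h, Gria1, Grik1, Grin2a, Grin2b, Grm4 and Adra1a.

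Each list was read as the authors' call on pooled replicates, although peak names in the mutant lists leave open that these rest on replicate 1. Since replicates have no values of their own, a difference between lists describes those lists and could not be set against a spread between samples. Where 4 values are given in a row below, the first pair is WT under DMSO and under GSK343, and the second pair is mutant under DMSO and under GSK343. Read depth is unknown from the files. A lower peak coverage in a bulk sample cannot be told apart from a mark held by fewer cells. The lists held 39495, 11903, 49803 and 10847 peaks, with total lengths of 84.3, 21.1, 134.5 and 17.0 Mb. The cells' label was checked on marker genes: none of 8 B cell genes and none of 8 housekeeping genes carried a peak in any list. Among genes of other blood cells, 3, 1, 3 and 0 of 6 T cell genes and 3, 1, 3 and 1 of 6 myeloid genes were overlapped.

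Most of the channel and receptor genes carried H3K27me3 peaks. At least 1 base of the gene body lay under a peak for 47 of 54 genes in WT under DMSO, against 31.8% of all genes. With GSK343 the number in WT was 37, against 21.4% of all genes. The mutant had 49 under DMSO, against 34.6%, and 41 under GSK343, against 20.3%. Peaks were found in all 4 lists for 35 genes and in none for 5. Of all 21631 genes, 7739 were overlapped in at least 1 list, and those overlapped in all 4 were not counted. With at least 10% of the gene body covered, the counts in WT were 22 (17.3% of all genes) under DMSO and 15 (8.19%) under GSK343, and in mutant 25 (21.4%) and 14 (7.25%). The median covered share over the 54 genes was 5.59%, 1.17%, 7.94% and 1.36%, while the median of all genes was 0% in each list. These lengths add up to 474 kb, 158 kb, 669.6 kb and 138 kb. A peak counted for each gene it overlaps, and 1 peak on chromosome 5 lay across the neighbouring GABA receptor genes Gabra4 and Gabrb1 in 3 of the lists.

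**Figure D1:**
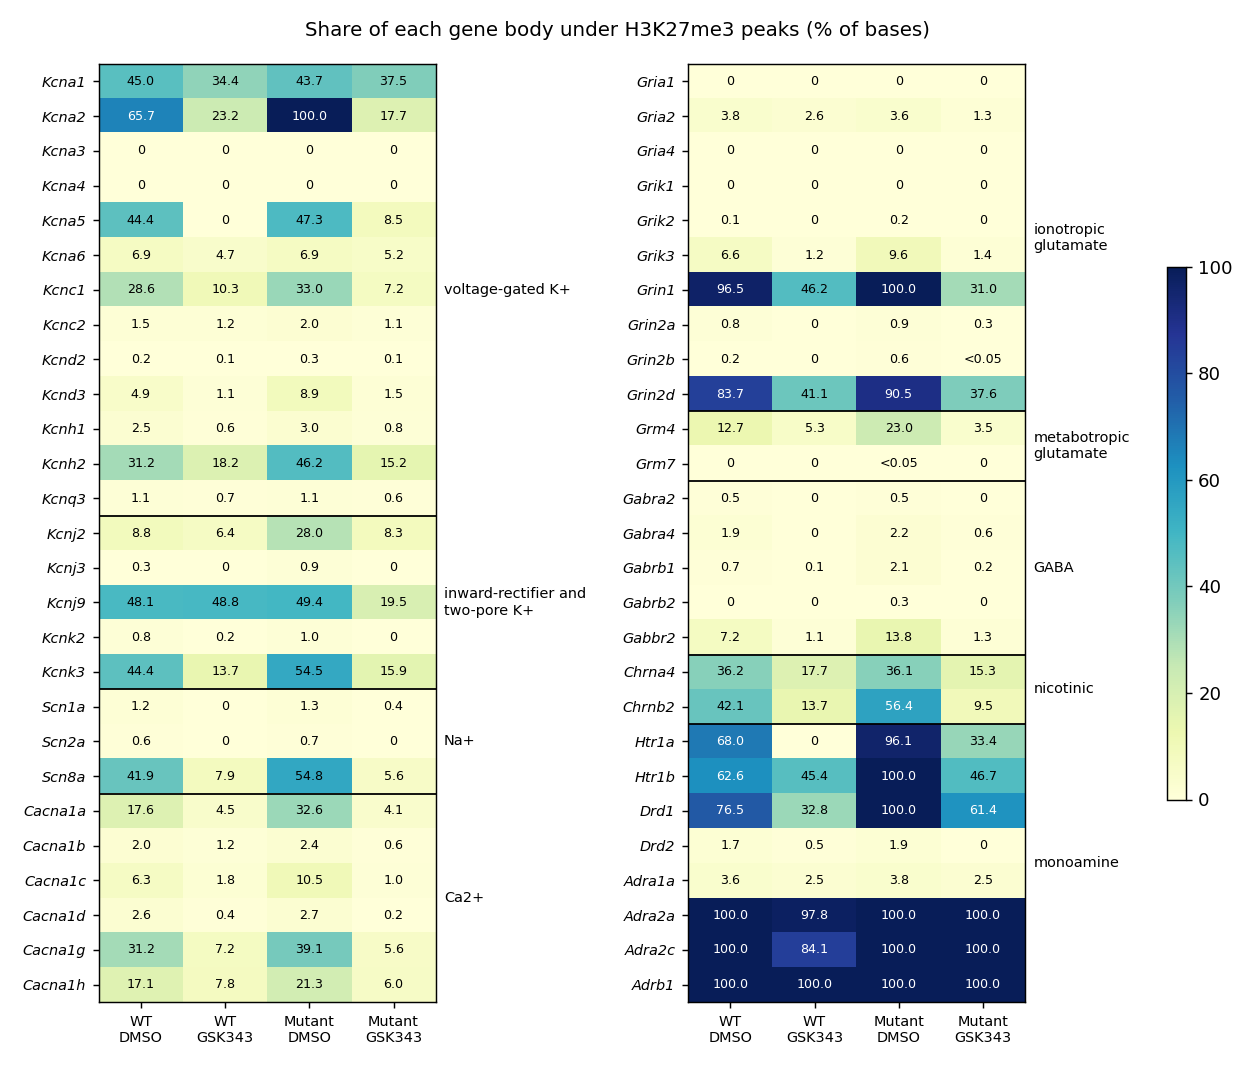
Share of each gene body under peaks, in percent of its bases, for the 54 genes (rows, grouped by class) in the 4 peak lists (columns). Adrb1 stood at 100% in each list and Kcna3, Kcna4, Gria1, Gria4 and Grik1 at 0, and most rows were paler under GSK343.

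Of the 13 voltage-gated potassium channels, which repolarize the membrane after an action potential, 11, 10, 11 and 11 were overlapped. Of all genes, 31.8%, 21.4%, 34.6% and 20.3% were overlapped, the background for this and the later class counts. That share was higher in longer genes. Kcna2, which encodes the axonal channel Kv1.2, had the highest share of the class, at 65.7%, 23.2%, 100% and 17.7%. In WT DMSO 6 separate peaks lay over Kcna2, whereas a single peak of 30.9 kb spanned the gene in mutant DMSO. Its close relative Kcna1 changed less, with 45%, 34.4%, 43.7% and 37.5% from 1 peak in each list. Kcna5, which encodes Kv1.5, had 44.4%, 0%, 47.3% and 8.45%, so that its peak was absent under GSK343 in WT only. Kcna3 and Kcna4 stood at 0 in each list. The nearest peak to Kcna3 (chr3:107036162-107038129) was 52.5 kb, 54 kb, 48.5 kb and 60.9 kb away. For Kcna4 it was 309 kb, 595 kb, 308 kb and 595 kb away. Kcna3 and Kcna2, the lowest and the highest of the class, lie close together on chromosome 3, and the nearest WT DMSO peak to Kcna3 is 1 of those over Kcna2. The remaining 8 genes, Kcna6, Kcnc1, Kcnc2, Kcnd2, Kcnd3, Kcnh1, Kcnh2 and Kcnq3, kept a peak in all 4 lists, from 0.19% in Kcnd2 to 31.2% in Kcnh2 in WT DMSO.

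The 5 inward-rectifier and two-pore channels, which hold the resting potential, were all overlapped under DMSO in both genotypes, and 4 and 3 remained overlapped under GSK343 in WT and mutant. Kcnj9, the G-protein-gated channel subunit GIRK3, had shares of 48.1%, 48.8%, 49.4% and 19.5%. It was the only 1 of the 54 genes with a higher share under GSK343 than under DMSO, and only in WT. Its widest peak nevertheless measured 22.6 kb in WT DMSO and 4.52 kb in WT GSK343, since most of the DMSO peak lay outside the gene body. Kcnj3, which encodes the partner subunit GIRK1, had 0.28%, 0%, 0.94% and 0%. Kcnk2, the mechanosensitive channel TREK-1, had 0.82%, 0.19%, 1.04% and 0%. Kcnk3 and Kcnj2 kept peaks in each list, with 44.4% and 8.83% in WT DMSO.

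Among the 3 sodium channels, which carry the rising phase of the action potential, only Scn8a had wide coverage. Scn8a (chr15:100869863-101045938), which encodes Nav1.6, was covered by 41.9%, 7.86%, 54.8% and 5.55%, or 73.7 kb, 13.8 kb, 96.5 kb and 9.78 kb. These lengths came from 27, 10, 25 and 10 peaks. Scn1a, which encodes Nav1.1, had 1.24%, 0%, 1.32% and 0.36%, and Scn2a, which encodes Nav1.2, had 0.60%, 0%, 0.74% and 0%. The covered share of Scn8a thus exceeded that of Scn1a and Scn2a in every list, although all 3 genes are over 100 kb long.

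All 6 calcium channel genes, which encode pore-forming subunits, were overlapped in each of the 4 lists. Cacna1g, a T-type channel, was highest in WT DMSO, with 31.2%, 7.18%, 39.1% and 5.63%. Cacna1b, the N-type channel of presynaptic terminals, was lowest, with 2.00%, 1.16%, 2.38% and 0.57%. Cacna1a, the P/Q-type channel, had the most peaks of all 54 genes under DMSO, 28 in WT and 32 in mutant, against 9 and 7 under GSK343. All 6 genes had a higher share in mutant than in WT under DMSO and a lower one under GSK343. Of all genes overlapped in any list, 30.8% had this order, which the total lengths of the lists had too. In Cacna1b and Cacna1d both differences were under 1 percentage point.

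Ionotropic glutamate receptors, which mediate fast excitatory transmission, showed both extremes. Grin1 (chr2:25291177-25319187), the obligatory subunit of NMDA receptors, was covered by 96.5%, 46.2%, 100% and 31.0%. Its widest peak measured 25.7 kb, 6.50 kb, 40.7 kb and 4.80 kb. Grin2d, another NMDA receptor subunit, had 83.7%, 41.1%, 90.5% and 37.6%. The NMDA receptor subunits Grin2a and Grin2b, both over 300 kb long, had only 0.82%, 0%, 0.91% and 0.28%, and 0.21%, 0%, 0.58% and 0.04%. Of the AMPA and kainate receptor subunits, Gria1, Gria4 and Grik1 had no peak in any list, and Grik2 had 0.10%, 0%, 0.15% and 0%. Gria2 and Grik3 kept a peak in each list, with 3.79% and 6.6% in WT DMSO. In the class as a whole, 7, 4, 7 and 6 of 10 genes were overlapped. The median length of the class was 348.5 kb. Grin1, Grin2d, Gria2 and Grik3, all under 300 kb, were overlapped in each list, and the other genes of the class are longer. Of those longer genes, Grik2, Grin2a and Grin2b were overlapped in both DMSO lists, none in WT GSK343, and Grin2a and Grin2b in mutant GSK343. Of all genes over 300 kb, 76.3%, 56%, 79.7% and 60.3% were overlapped, so the longer genes of the class did not stand above that background.

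The metabotropic glutamate receptors Grm4 and Grm7 both signal through inhibitory G proteins. Grm4 was covered by 12.7%, 5.26%, 23.0% and 3.54%. Grm7, the longest of the 54 genes at 921.9 kb, had a peak only in mutant DMSO, with 0.04% of the gene under a peak of 407 bp. Of the GABA receptor genes, which mediate inhibition, Gabbr2, a subunit of the metabotropic GABA-B receptor, was highest with 7.2%, 1.08%, 13.8% and 1.31%. It carried 20, 4, 28 and 4 peaks. The GABA-A receptor subunits had low shares throughout: Gabra2 had 0.48%, 0%, 0.48% and 0%, Gabra4 1.90%, 0%, 2.17% and 0.57%, Gabrb1 0.69%, 0.11%, 2.08% and 0.21%, and Gabrb2 0%, 0%, 0.28% and 0%. In mutant GSK343 the nearest peak to Gabra2 lay 0.29 kb upstream of the gene, so its loss there rests on a short distance.

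Both nicotinic receptor subunits were overlapped in each list. Chrnb2 had 42.1%, 13.7%, 56.4% and 9.49%, and Chrna4, with which it forms the main nicotinic receptor of the brain, had 36.2%, 17.7%, 36.1% and 15.3%. The 8 monoamine receptors, all coupled to G proteins, had the highest class median, 72.3%, 39.1%, 100% and 54.1%. Their median length was 4.46 kb. The 20 other monoamine receptor genes taken by name, with a median length of 19.1 kb, had medians of 12.9%, 3.96%, 22.9% and 2.55%. Adrb1 (chr19:56722117-56725150), the beta-1 adrenergic receptor, was covered over its whole length in each list. Adra2a and Adra2c, alpha-2 adrenergic receptors, stood at 100%, 97.8%, 100% and 100%, and at 100%, 84.1%, 100% and 100%. The serotonin receptor gene Htr1a had 68.0%, 0%, 96.1% and 33.4%, and Htr1b had 62.6%, 45.4%, 100% and 46.7%. Drd1, the D1 dopamine receptor, had 76.5%, 32.8%, 100% and 61.4%, whereas Drd2, the D2 receptor and a longer gene, had 1.72%, 0.46%, 1.94% and 0%. Adra1a, also a long gene, had 3.63% in WT DMSO and kept a peak in each list.

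The effect of GSK343 was read within each genotype. In WT 45 of the 47 genes overlapped under DMSO had a lower covered share under GSK343, against 96.4% of all genes overlapped under DMSO. In mutant it was 46 of 49, against 98.1%. The fall in these genes was thus about as common as among genes in general. The median change over the 54 genes was -2.05 percentage points in WT and -2.08 in mutant. The largest falls in WT were those of Htr1a, Grin1, Kcna5, Drd1 and Grin2d, and in mutant those of Kcna2, Grin1, Htr1a, Htr1b and Grin2d. Of the bases of the 54 genes covered under DMSO, 32.5% remained covered under GSK343 in WT and 20.5% in mutant, close to the 30.8% and 17.6% of all genes. By class, the monoamine receptors kept 65.5% and 65.7%, the sodium channels 18% and 10.4%, and the GABA receptor genes 12% and 9.47%. The median lengths of these classes were 4.46 kb, 170 kb and 213 kb. All genes up to 10 kb kept 52.7% in WT and 39.4% in mutant. All genes of 136.0 to 921.9 kb, a range holding each sodium channel and most of the GABA receptor genes, kept 24% and 12.3%. In WT DMSO, Scn8a held 73.7 of the 76.7 kb covered in sodium channels, and Gabbr2 23.7 of 29.5 kb in GABA receptor genes.

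A peak can reach far beyond a short gene, so a share at or near 100% under both treatments did not mean peaks of the same width. The widest peak over Adrb1 measured 32.7 kb, 5.76 kb, 49.8 kb and 6.10 kb. That over Adra2a measured 14.9 kb, 5.33 kb, 16.4 kb and 7.46 kb. In all 37 genes with a peak under both treatments in WT, the widest peak was narrower under GSK343, against 99.2% of all such genes, with a median of 7.49 kb under DMSO and 3.75 kb under GSK343. The same held for all 41 in mutant, against 99.7%, with medians of 8.83 kb and 3.31 kb.

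Overlap was lost altogether under GSK343 in 10 of 47 genes in WT, against 33.1% of all genes, and in 8 of 49 in mutant, against 41.6%. Kcnj3, Scn2a, Grik2 and Gabra2 lost it in both genotypes. Kcna5, Scn1a, Grin2a, Grin2b, Gabra4 and Htr1a lost it in WT alone, and Kcnk2, Drd2, Grm7 and Gabrb2 in mutant alone, where Grm7 and Gabrb2 had had no peak in WT. The widest DMSO peak of the genes that lost overlap had a median of 1.32 kb in WT, with the widest over Grin2a at 3.5 kb, and of 1.13 kb in mutant. Genes that kept an overlap had wider DMSO peaks, as the medians above show.

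The mutant was then set beside WT at each treatment. With DMSO the covered share was higher in mutant than in WT for 41 of the 49 genes overlapped in either, against 78.5% of all genes so defined, and lower for 5. Under GSK343 it was higher for 20 of 43, against 36.7%, and lower for 22. The order reversed between treatments, higher in mutant under DMSO and lower under GSK343, in 19 of the 49 genes overlapped in any list, against 30.8% of all such genes. Scn8a, Grin1 and Kcna2 were among them. A further 17, against 18.8%, were higher in mutant under both treatments, among them Drd1, Htr1b and Gabbr2. The kept share of covered bases was 12 percentage points lower in mutant than in WT. With the 10847 peaks of smallest p-value taken from each list, this gap was 19.5 percentage points.

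Position along the gene was measured in the 42 genes with a listed start. A peak reached within 1 kb of a listed start in 36 of 42 WT genes under DMSO (24.8% of all genes with a start) and in 28 under GSK343 (17%). For mutant it was 39 under DMSO (28.1%) and 30 under GSK343 (16%). A gene with a peak in its body almost always had 1 at a start. The exceptions were Scn2a in WT DMSO, Grin2d in WT GSK343, and Scn1a and Grin2d in mutant GSK343. The listed start of Grin2d lies 4513 bases inside the gene, whose 5′ end was under a peak in both GSK343 lists. Among all genes with a start, 1140, 592, 1199 and 576 had a peak in the body but none at a start. Those with a peak at a start numbered 4280, 2934, 4862 and 2763. In the first 5 kb after the start, 45.6%, 24.7%, 52.2% and 24.5% of the bases of these genes were covered, against 14.6%, 6.75%, 17.7% and 5.85% for all genes. Beyond 100 kb from the start the values were 1.72%, 0.344%, 2.60% and 0.188%, against 0.792%, 0.135%, 1.63% and 0.108%. In all 4 lists coverage of these genes was thus higher in the first 5 kb than beyond 100 kb, as it was for all genes.

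**Figure D2:**
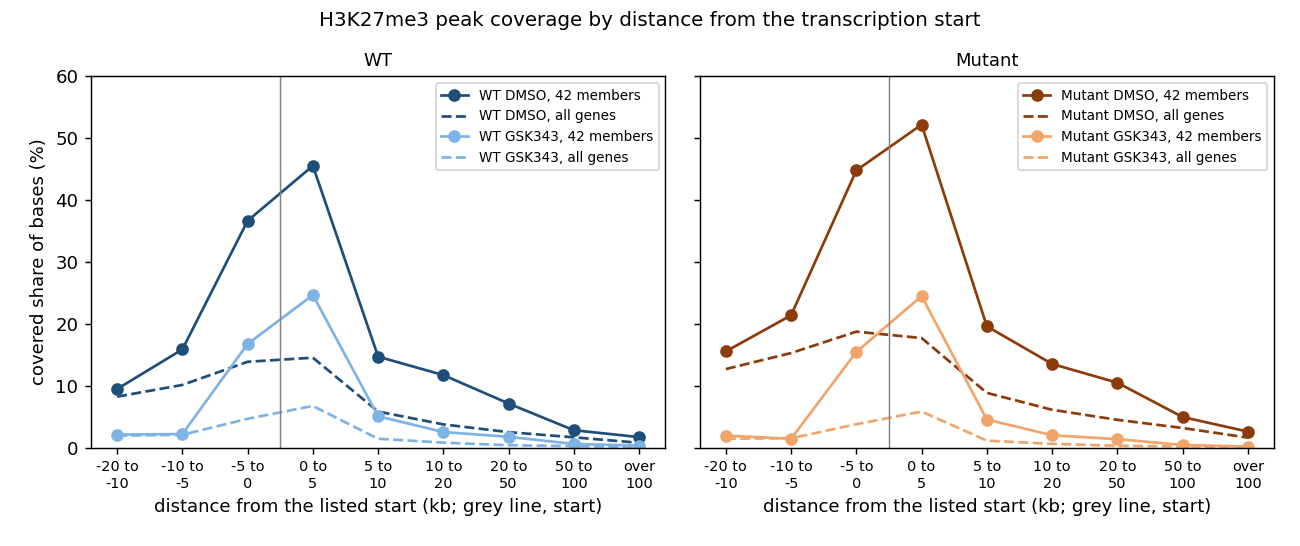
Percent of bases under peaks by distance from the listed start in kb, for the 42 genes with a start (points) and all genes with a start (dashed lines), WT on the left and mutant on the right. Each line is 1 peak list. The curves of the 42 genes peak in the 5 kb after the start, at 45.6% in WT DMSO and 24.7% in WT GSK343.

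Coverage near the start also remained more often under GSK343. Of bases covered under DMSO in the first 5 kb, 54.1% stayed covered in WT and 46.9% in mutant, while beyond 100 kb 19.1% and 6.97% did. All genes had the same order, with 45.7% and 32.5% in the first 5 kb and 16.1% and 6.48% beyond 100 kb. Counted by peak, 29 of 36 start peaks in WT DMSO were overlapped by a GSK343 peak, against 15 of 104 internal peaks. Internal peaks overlap a gene body but lie over 1 kb from any listed start, and some reach past an end of the gene. In mutant the counts were 31 of 39 and 12 of 101. Such counts were not made over all genes. Start peaks were also wider, with medians of 4601 bp in WT DMSO and 5343 bp in mutant DMSO, against 978.5 bp and 1267 bp for internal peaks, and a wider peak offers more bases to overlap. The deposited fold over background had medians of 3.58 and 3.74 for start peaks and 2.48 and 2.34 for internal peaks. Internal peaks came from few genes: 19 genes held the 104 in WT DMSO, with 26 in Scn8a, 19 in Gabbr2 and 12 in Cacna1c.

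**Figure D3:**
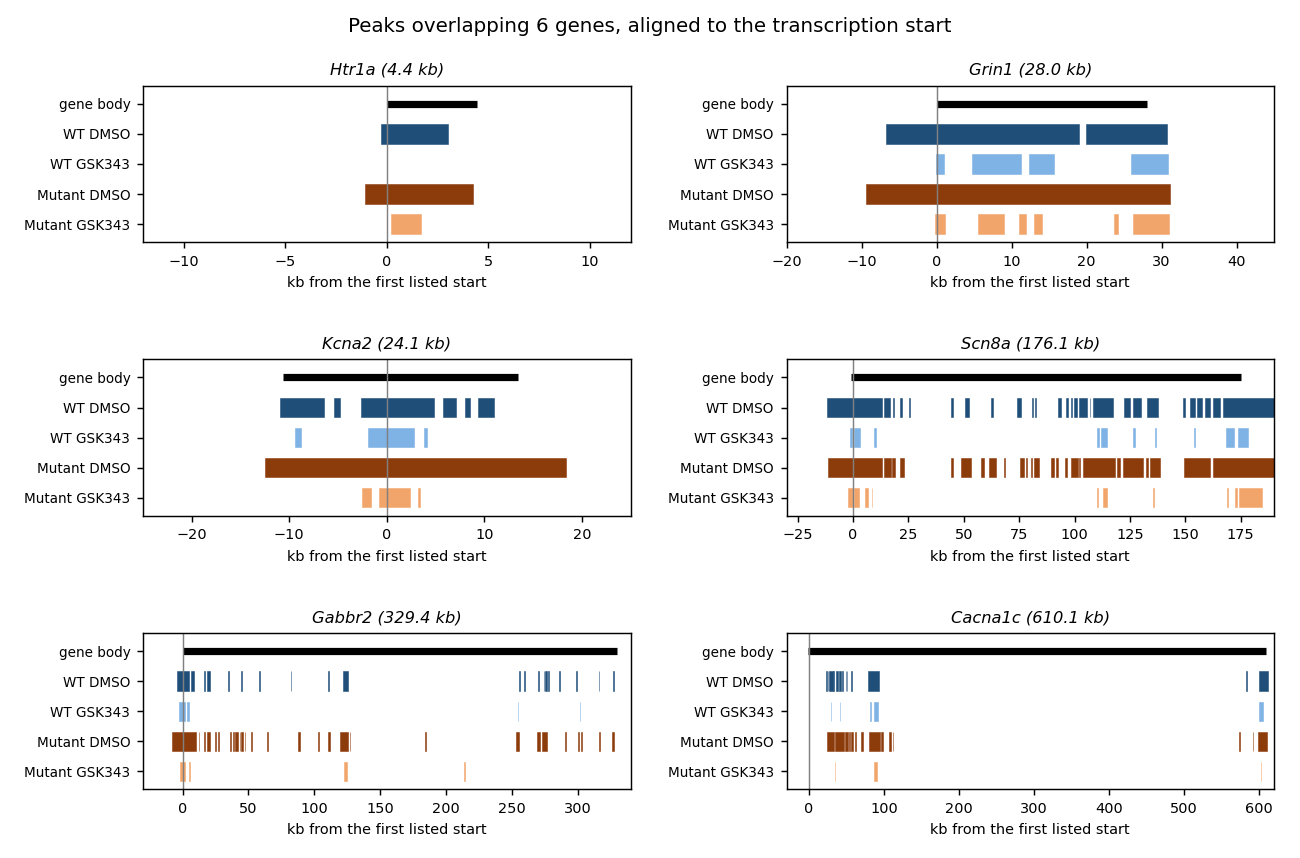
Peaks (coloured bars) over and around 6 genes in the 4 lists, in kb from the first listed start, with the gene body in black and the start as a grey line. A single peak covers Kcna2 in mutant DMSO, and the 26 internal WT DMSO peaks of Scn8a and 19 of Gabbr2 are mostly absent under GSK343.

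Without regard to direction, which adds the 12 genes with no listed start, 42, 29, 43 and 34 of the 54 genes had a peak within 1 kb of an end of the gene body, against 28.6%, 18.6%, 32.4% and 17.5% of all genes. The first and last 20% of the gene bodies together held 60.8%, 66.5%, 61.6% and 64% of all covered bases, against 54.9%, 63.6%, 51.9% and 64.6% in all genes. Among the 42 genes, the first 20% of the gene body held 42.4%, 45.7%, 41.7% and 49.96% of covered bases, close to the 41.5%, 53.2%, 37.2% and 54.6% of all genes.

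Gene length ran from 1.968 kb in Kcna3 to 921.9 kb in Grm7, with a median of 129.4 kb. The 27 short genes measured up to 122.8 kb and the 27 long genes from 136.0 kb. The median covered share was 42.1%, 13.7%, 46.2% and 15.2% in short genes and 0.82%, 0.11%, 1.09% and 0.21% in long genes. Covered length differed far less under DMSO, with medians of 4.2 kb and 4.38 kb in short genes and 2.90 kb and 3.27 kb in long genes, in WT and mutant. Under GSK343 the medians were 3.14 kb and 3.03 kb in short genes and 0.45 kb and 0.91 kb in long genes. Short genes kept 44.6% of their DMSO-covered bases in WT and 32.4% in mutant, against 32.9% and 19.6% for all genes in their length range. Long genes kept 22.9% and 13.1%, near the 24% and 12.3% of all genes in theirs. Overlap was lost in WT in 3 of 25 short genes, against 34% of all genes in their length range, and in 7 of 22 long genes, against 24.8%. In mutant it was lost in 1 of 25 short genes, against 43.4%, and in 7 of 24 long genes, against 26.7%.

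The count of overlapped genes read differently against genes of matching length. Short genes were overlapped in 25, 22, 25 and 24 of 27 cases, against 31.2%, 20.8%, 34.1% and 19.4% of all genes in their length range. Long genes were overlapped in 22, 15, 24 and 17 of 27 cases, against 65.5%, 49.3%, 68.2% and 50.3% of all genes in theirs. In genes over 300 kb the counts were 11, 8, 12 and 10 of 15, against 76.3%, 56%, 79.7% and 60.3% of all such genes, which is about the background. In genes up to 10 kb they were 9, 7, 9 and 9 of 10, against 22.7%, 14.5%, 25.3% and 13.7%. The gap to all genes was thus wide among the shortest channel and receptor genes and small among the longest.

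Across the genes overlapped in a list, length and covered share had a Spearman rho of -0.81 (n = 47), -0.89 (n = 37), -0.79 (n = 49) and -0.89 (n = 41). Length itself is the denominator of the share, and all overlapped genes gave -0.72, -0.82, -0.68 and -0.84. Length and covered bases had a rho of 0.02, -0.12, -0.04 and -0.08 in the same genes, and of 0.24, 0.03, 0.33 and -0.01 in all overlapped genes. These are descriptions over genes of shared libraries, not over replicates. Scn8a, Cacna1a, Cacna1c and Gabbr2 departed from the rest, each over 100 kb long with over 20 kb covered under DMSO in both genotypes.

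**Figure D4:**
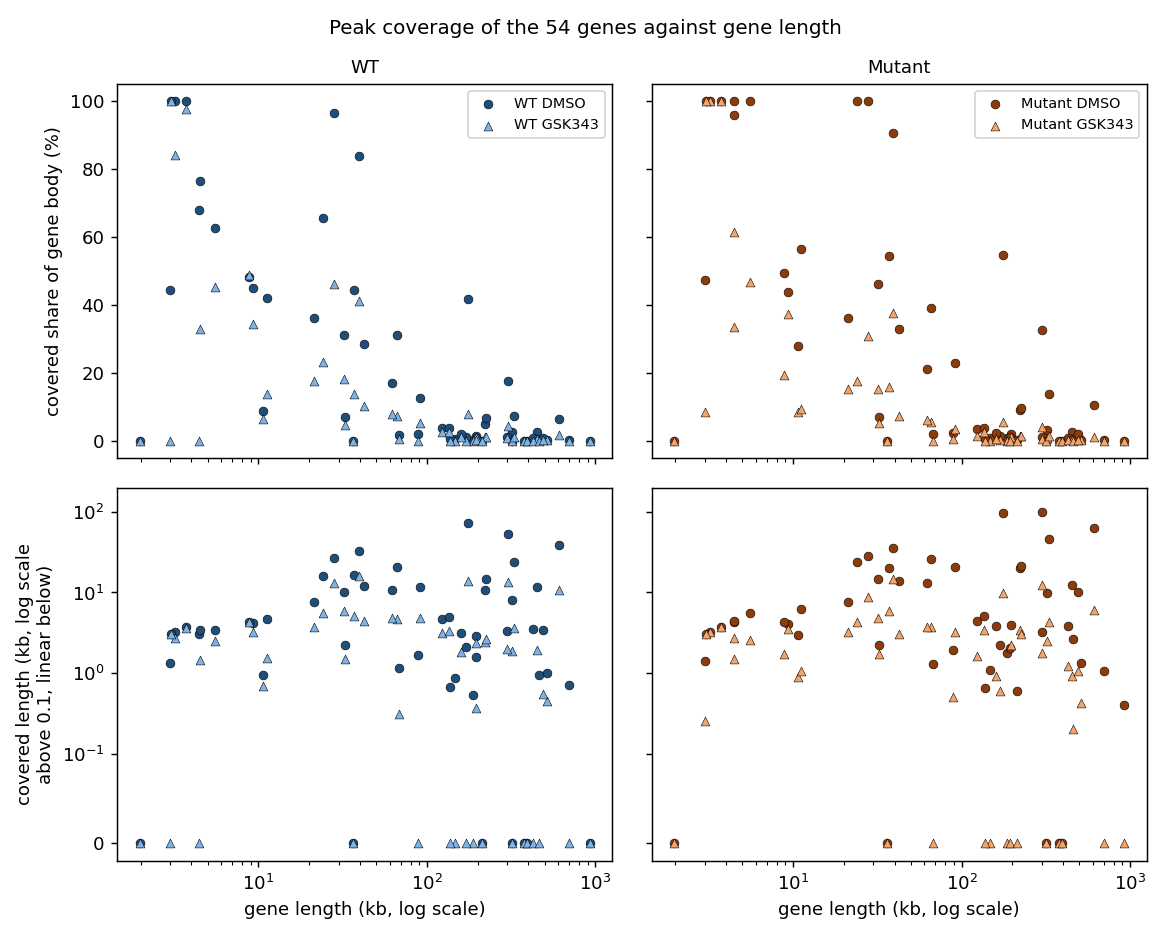
Covered share in percent (top) and covered length in kb (bottom) of the 54 genes against gene length in kb on a log axis, WT on the left and mutant on the right, circles for DMSO and triangles for GSK343, 1 point per gene. The share falls with length, while covered length under DMSO shows no slope among overlapped genes (rho 0.02 in WT and -0.04 in mutant).

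Other genes of these families were taken by name. Among 136 relatives, with a median length of 32.6 kb, 102, 82, 107 and 81 were overlapped, with median shares of 4.6%, 0.60%, 10.0% and 0.63%. Among 31 auxiliary subunits, with a median length of 62.4 kb, which modify channels and receptors without forming the pore or ligand site, 26, 23, 26 and 21 were overlapped, with medians of 8.27%, 1.76%, 16.2% and 0.42%. As shares, these counts were 75%, 60.3%, 78.7% and 59.6% of relatives and 83.9%, 74.2%, 83.9% and 67.7% of auxiliary subunits. The background of all genes was 31.8%, 21.4%, 34.6% and 20.3%. Genes of 10 to 50 kb, a range that holds the median length of the relatives, had 29.5%, 19.2%, 32.3% and 17.6%. Genes of 136.0 to 921.9 kb, longer than the median auxiliary subunit, had 65.5%, 49.3%, 68.2% and 50.3%. Covered over the whole gene body in WT DMSO were 8 relatives, Kcna7, Kcnk4, Kcnk15, Grin2c, Drd4, Drd5, Adra2b and Adrb3. In WT GSK343 their shares ran from 42.6% in Drd5 to 100% in Kcnk4, with 78.2% in Kcna7, 71.3% in Grin2c, 95.0% in Drd4, 87.8% in Adra2b, 52.5% in Kcnk15 and 44.3% in Adrb3. Kcnn4, which encodes a calcium-activated potassium channel of lymphocytes, had no peak in any list, as was the case for Kcna3.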

How the data were processed

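H3K27me3 ChIP and input were sequenced in 16 samples. Per the submitters' processing notes, bcl2fastq, Bowtie2 2.4.2, SAMtools 1.12, MACS2 2.2.7.1, bedtools 2.29.2 and deepTools 3.5.1 were used with the build mm10, and the notes used here give no role or setting. The deposited broad-peak lists, 1 per genotype and treatment, hold positions, a fold over background (a linear ratio) and the −log10 of a p-value and of a q-value, all as the authors deposited them. Per the file names, the authors had taken out blacklisted regions. The peak names of a list gave its genotype and treatment. The fold describes peaks within a list only. How many reads lie behind a peak is unknown, so no interval is given.

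Gene bodies came from a RefSeq table of GRCm38 (21631 protein-coding genes of the autosomes and the X chromosome, without exons), and starts and directions from RefSeq promoter windows, listed for 17274 of these genes. All 54 genes matched by symbol. Peaks of a list were merged, and the covered share is the percent of gene body bases under them. The start window spans 1 kb either side of any listed start. An overlap needs 1 bp. Zones and outer shares are measured from the first listed start or the gene's ends. Positions count from 1.

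The genes and lists were chosen with earlier results of these data known. Named with all 4 values were the highest and lowest gene of each class in WT DMSO, genes without a peak in a DMSO list, genes that lost overlap under GSK343, the 5 largest falls and 3 largest GSK343 shares per genotype, the longest and shortest gene and Kcna3. The relatives were to be the 3 highest, but 8 tied at 100% and all are given. Kcna1, Cacna1a and Gabrb1 were added after their values were seen. Alternatives were stricter thresholds on q-value, p-value, fold and width, equal peak numbers, merging, other windows and other splits. No column of a single sample was used. Tools were numpy 2.4.6, scipy 1.17.1, pandas 2.3.3 and matplotlib 3.10.9 under Python 3.11.15. On simulated data the coverage code gave the known bases in 1000 of 1000 cases for each of 3 quantities, and matched bedtools 2.31.1 in 5 of 5 lists.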

Additional observations from a re-analysis of the deposited data

Results flagged for a closer look

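In these genes the treatment or the genotype moved the covered share in opposite directions in the groups compared, each represented by 1 list per group, so the difference was not tested. Values are in percentage points of the gene body. The share of Kcnj9 was 0.68 higher under GSK343 than under DMSO in WT, while in mutant GSK343 minus DMSO was -29.9. The other results compare mutant with WT and give mutant minus WT first under DMSO and then under GSK343, for all 20 genes whose sign differed. In Kcna1 alone the mutant was lower under DMSO and higher under GSK343, with -1.27 and 3.03. In the other 19 genes, of 49 overlapped in any list, it was higher under DMSO and lower under GSK343, against 30.8% of all such genes. The whole lists had the same order, with 134.5 Mb in mutant and 84.3 Mb in WT under DMSO, and 17.0 Mb and 21.1 Mb under GSK343. Among potassium channels, Kcna2 had 34.3 and -5.47, Kcnc1 4.42 and -3.15, Kcnc2 0.53 and -0.0743, Kcnd2 0.0632 and -0.00525, and Kcnh2 15.0 and -2.99. Kcnj9 had 1.27 and -29.3, and Kcnk2 had 0.22 and -0.19. The sodium channel Scn8a had 12.9 and -2.30. All 6 calcium channels were among them, Cacna1a with 15.0 and -0.33, Cacna1b with 0.38 and -0.59, Cacna1c with 4.15 and -0.78, Cacna1d with 0.15 and -0.22, Cacna1g with 7.90 and -1.56, and Cacna1h with 4.21 and -1.81. Among glutamate receptors, Grin1 had 3.46 and -15.2, Grin2d 6.81 and -3.51, and Grm4 10.3 and -1.72. Chrnb2 had 14.3 and -4.20, and Drd2 had 0.22 and -0.46. The changes of Kcnc2, Kcnd2, Kcnk2, Cacna1b, Cacna1d and Drd2 are under 1 percentage point, and Kcnk2 and Drd2 had no peak in mutant GSK343.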

How the results depend on the processing

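Of 185 values recomputed under 13 settings, 146 stayed within a factor of 1.5, 39 moved further and 0 changed sign. Counts, covered shares and kept shares cannot be negative, so only differences could have changed sign. Among the differences, the median of mutant minus WT under GSK343 was 0 and had no sign to change. Lists below run WT DMSO, WT GSK343, mutant DMSO, mutant GSK343, and unlisted values stayed within that factor. The median covered share in percent was 3.71, 0.64 and 0.72 (mutant DMSO within the factor) with a −log10 q-value of at least 2, 3.12, 0.57, 3.56 and 0.61 where the −log10 p-value reached 5, and 2.26, 0.64, 2.93 and 0.61 with a fold of at least 3. With equal numbers of top peaks it was 3.61 in WT DMSO and 4.73 in mutant DMSO, and with peaks of at least 1 kb it was 0.78 in mutant GSK343. The median WT change under GSK343 was -1.28, -1.25, -1.19 and -1.23 percentage points with the q-value, p-value, fold and equal-number settings. The median of mutant minus WT under DMSO was 0.70 with the q-value setting, 0.20 with the fold setting and 0.66 with peaks of at least 1 kb. Short minus long medians were 24.5, 7.86 and 9.49 (q-value), 24.5, 6.05 and 7.82 (p-value) and 24.5, 7.83 and 7.82 (fold) in WT DMSO, WT GSK343 and mutant GSK343, 24.5 in WT DMSO with equal numbers and 9.49 in mutant GSK343 with peaks of at least 1 kb. Start windows overlapped in mutant GSK343 numbered 19 with the p-value and with the fold setting. The gap in kept bases was 19.5 percentage points with equal numbers. Requiring 10% of the gene body left 22, 15, 25 and 14 genes. Merging peaks closer than 3 kb, 5 kb flanks, a 2.5 kb start window, a split at 100 kb and counting only genes with a peak moved no value past the factor. Neither did the 2 settings added after seeing the data, the 5′ end of the gene body as the start and leaving out Gabra4 and Gabrb1, which share a peak. No paired analysis was possible because each list pools the replicates or holds 1 of them, and for the same reason no replicate could be left out.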
